A study of Mus musculus with 2 samples.

Results

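Translation initiation and elongation factors are the proteins that start protein synthesis on an mRNA and then move the ribosome along it. The genes described here were the protein-coding genes with a read in both libraries whose symbol begins with Eif or Eef followed by a digit. This rule gave 63 genes of 13061 protein-coding genes with a read in both libraries. The tissue was left cerebral cortex, taken at 14 days of age from males of B6CASTF1/J, an F1 cross of the C57BL/6J and CAST/EiJ strains. The series holds 1 group and 2 libraries (replicate 1 and replicate 2), each from 2 µg of total RNA with Ambion mix 1 and Lexogen set 4 spike-ins added, so no conditions were compared. The labels number the libraries as biological replicates 1 and 2. A single donor identifier is given for both samples and the descriptions mention several males, so pooled animals cannot be told apart from separate ones. Fisher's and chi-square tests between the libraries set 1 library against 1 and compare the difference with counting error alone. Whether a difference beyond that error is technical or between animals cannot be told.

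Initiation begins when eIF4E binds the mRNA cap and eIF4G joins it to the helicase eIF4A, which unwinds the leader with the help of eIF4B and eIF4H. The small ribosomal subunit, carrying eIF1, eIF1A, eIF3, eIF5 and the initiator tRNA held by eIF2, scans to a start codon. During elongation eEF1A delivers each aminoacyl-tRNA, eEF1B recharges eEF1A with GTP, and eEF2 drives translocation. In neurons these factors are a known point of control of the protein synthesis that accompanies synaptic plasticity.

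Each value is a number of long reads per gene, and 1 read stands for 1 cDNA molecule. Levels (CPM) are reads per 1000000 mouse reads and were not divided by transcript length. Replicate 1 held 775048 mouse reads and replicate 2 held 924222, so 3 reads, the limit that a count of 0 allows, are 3.87 and 3.25 CPM. All 5 excitatory neuron markers looked for had reads in both libraries. So had 5 of 7 striatal and 3 of 3 meningeal markers, so the presence of reads does not show which region was taken. The 63 genes took 6842 reads in replicate 1 (0.883% of mouse reads, 95% Wilson interval 0.862% to 0.904%) and 8032 reads in replicate 2 (0.869%, 0.850% to 0.888%). Intervals of this kind cover counting error only. The genes lay on 20 chromosomes, their median level was 78.0 CPM, and the median of all protein-coding genes with reads in both libraries was 18.2 CPM. Levels ran from 1.19 to 866 CPM, and 24 of the 63 genes stood above 100 CPM. Across the 63 genes, the level and the length of the leading annotated transcript had a Spearman rho of -0.11, given as a description.

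The largest of the 11 role groups by reads held the eIF4E, eIF4G and eIF4A genes with their relatives and helicase cofactors, at 34.9% in replicate 1 and 34.9% in replicate 2. Eif4g2, an eIF4G relative that lacks the eIF4E-binding site and serves cap-independent initiation, led with 691 reads in replicate 1 and 776 in replicate 2. Its level was 866 ± 36.7 CPM (mean ± SD, n = 2, as for all levels that follow), which placed it 99th among all annotated genes. An SD of 2 values can fall below the counting error of the reads. Eif4h, the cofactor that stimulates the helicase, had 592 and 727 reads, or 775 ± 16.1 CPM. Eif4a2, a helicase of the cap-binding complex, had 535 and 588 reads, or 663 ± 38.2 CPM. These 3 genes stood well above the rest of the group. Eif4e, which binds the cap itself, reached 143 ± 15.6 CPM, and Eif4b, the other helicase cofactor, reached 104 ± 6.25 CPM.

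Next came eIF3, the large scaffold that holds the small subunit and the mRNA together, with 15.5% and 15.7% of the reads of the 63 genes. Its 12 subunits other than the loosely bound eIF3j ran from Eif3k at 48.5 CPM to Eif3b at 261 CPM, a 5.37-fold span. Eif3b had 180 reads in replicate 1 and 267 in replicate 2. Eif3l followed with 133 and 139 reads, and Eif3h with 90 and 129. The subunits of a complex were thus not read at equal numbers, and the smaller complexes showed the same kind of span. The eIF2 subunits spanned 2.35-fold, from Eif2s1 at 78.0 CPM to Eif2s2 at 183 CPM, with the gamma subunit genes Eif2s3x and Eif2s3y at 105 CPM together. The 5 subunits of eIF2B, the exchange factor that recycles eIF2, spanned 4.55-fold, from Eif2b3 at 34.1 CPM to Eif2b5, the catalytic subunit, at 155 CPM. The 3 eEF1B subunits spanned 2.43-fold, from Eef1b2 at 69.1 CPM to Eef1g at 168 CPM.

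Among the other initiation factors, Eif2s2, the beta subunit of eIF2, had 146 reads in replicate 1 and 164 in replicate 2. Eif2s1, the alpha subunit that the stress kinases phosphorylate, had 63 and 69, and Eif2b5 had 134 and 127. Eif1ax, a gene of eIF1A, had 134 and 167 reads. Eif6, which keeps the large ribosomal subunit from joining too early, had 54 and 65. On the elongation side, Eef1g, the structural subunit of eEF1B, had 129 and 157 reads, and the exchange subunits Eef1d and Eef1b2 had 65 and 74, and 56 and 61. Eef1e1, a scaffold of the aminoacyl-tRNA synthetase complex that shares the name, had 35 and 42. Eif2b5, at 173 CPM in replicate 1 and 137 CPM in replicate 2, had the widest gap of these 9 genes in CPM.

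Several single factors were read more often than all subunits of eIF2, of eIF2B or of eEF1B together, whose sums were 390 and 343, 415 and 348, and 323 and 316 CPM. Eif5a, which carries hypusine and helps ribosomes through difficult stretches, had 373 reads in replicate 1 and 486 in replicate 2. Eif1, which guards the choice of start codon, had 356 and 487 reads, and Eif5, which triggers GTP hydrolysis by eIF2, had 394 and 382. Their levels were 504 ± 31.5, 493 ± 47.8 and 461 ± 67.2 CPM. With 2 libraries these neighbours in the order cannot be told apart beyond their spread. Eef1a1, the general form of eEF1A, followed at 404 ± 28.6 CPM (329 and 355 reads), and Eef2 at 339 ± 2.88 CPM (261 and 315 reads). The 8 highest genes together held 51.6% of the reads of the 63 genes in replicate 1 and 51.2% in replicate 2.

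**Figure D1:**
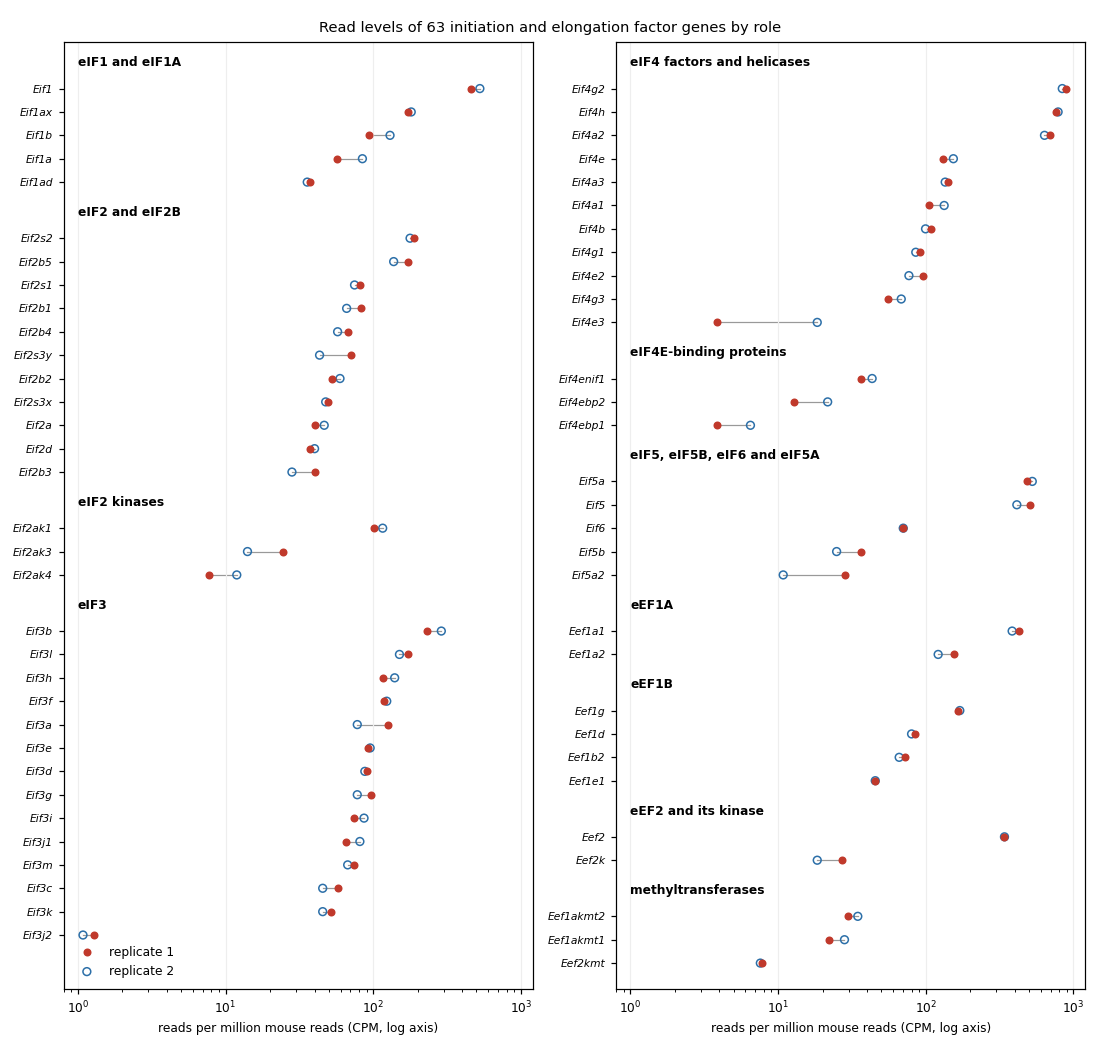
Level of each of the 63 genes in replicate 1 (filled) and replicate 2 (open), in CPM on a log axis, grouped by role. Eif4g2 is highest at 866 CPM on average, and Eif3j2 is lowest at 1.19 CPM.

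Kinases and binding proteins that act on these factors were read at a range of levels. Eef2k, the kinase that phosphorylates and inhibits eEF2, had 21 reads in replicate 1 and 17 in replicate 2, or 22.7 ± 6.15 CPM. Among the eIF2 kinases, which lower initiation under stress, Eif2ak1, the heme-regulated kinase, had 78 and 107 reads and, at 108 CPM, stood above its substrate Eif2s1 at 78.0 CPM. Eif2ak3 (PERK), the kinase of the endoplasmic reticulum, had 19 and 13 reads, and Eif2ak4 (GCN2), which senses amino acid shortage, had 6 and 11. Of the 4E-binding proteins, which keep eIF4E from eIF4G, Eif4ebp2 had 10 and 20 reads and Eif4ebp1 had 3 and 6. On Known models, which match an annotated transcript, the order turned, with 1 and 1 reads of Eif4ebp2 and 2 and 4 of Eif4ebp1. Eif4enif1, which carries eIF4E into the nucleus, had 28 and 40 reads. The methyltransferase genes were also low. Eef1akmt2 and Eef1akmt1, which modify lysines of eEF1A, stood at 32.1 ± 3.50 and 25.0 ± 4.38 CPM. Eef2kmt, which modifies eEF2, stood at 7.66 ± 0.118 CPM, on only 6 and 7 reads, so its small SD does not mean a precise level.

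Genes of the same name pattern that fell outside the rule were few. Eif2ak2, the kinase that senses double-stranded RNA, Eif4ebp3, Eif4e1b and Eef1akmt3 had 0 reads in both libraries, which allows up to 3.87 CPM in replicate 1 and 3.25 CPM in replicate 2. Eef1akmt4 had 1 read in replicate 1 and 0 in replicate 2. The last of them, the processed pseudogene Eif4a-ps4, had 80 reads in each library.

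Many of these factors exist as pairs or sets of paralogs, and the reads of a set were divided unevenly. Eef1a2 is the form of eEF1A known from neurons and muscle, and in rodents it takes over from Eef1a1 as these cells mature. Eef1a2 (chr2:181147653-181157014) had 121 reads in replicate 1 and 112 in replicate 2. This was 26.9% of the reads of the pair in replicate 1 (23.0% to 31.2%) and 24.0% in replicate 2 (20.3% to 28.1%). Eef1a1 (chr9:78478449-78489151) was thus read 2.72 times as often as Eef1a2 in replicate 1 and 3.17 times in replicate 2. In bulk tissue, fewer cells of a type and less RNA per cell cannot be told apart.

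The helicase pair leaned strongly to 1 side. Eif4a2 held 86.7% of the reads of Eif4a1 and Eif4a2 in replicate 1 (83.8% to 89.2%) and 82.7% in replicate 2 (79.7% to 85.3%). Eif4a1 had 82 and 123 reads. Eif4a3, the related helicase that sits in the exon junction complex, had 110 and 125. The share depends on where reads of a near-identical copy are placed. The annotated transcript of the pseudogene Eif4a-ps4 on chromosome 1 is 1218 bases long and matched the annotated transcript Eif4a1-213 at 1217 of them. The single difference is G534A, counted from 1 at the first base of the pseudogene transcript, with the base of Eif4a1 first. Within the aligned bases this base alone separates the sequences, so the stretch around it is shown, with the differing base in capitals. Eif4a1-213 is longer, at 1774 bases.
Eif4a1-213: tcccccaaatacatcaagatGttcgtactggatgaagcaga
Eif4a-ps4-201: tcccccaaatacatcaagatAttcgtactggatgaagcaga
The 80 reads of Eif4a-ps4 in each library are therefore uncertain, and so is the level of Eif4a1. When they were counted beside Eif4a1, Eif4a2 held 76.8% of the set in replicate 1 and 74.3% in replicate 2. Eif4a2 had most reads under either count.

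In the eIF4G set, Eif4g2 held 85.8% of reads in replicate 1 and 84.5% in replicate 2. Eif4g1, the main scaffold of the cap-binding complex, had 71 and 79 reads, and Eif4g3, its close relative, had 43 and 63. Eif4g1 and Eif4g3 differed less from each other than either did from Eif4g2. Among cap-binding proteins, Eif4e held 57.0% and 61.7%, and Eif4e2, which competes for the cap as a repressor, had 74 and 71 reads. Eif4e3 had 3 and 17 reads, the widest relative gap between the libraries among the paralogs.

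Elsewhere the lead also went to a single gene of each set. Eif5a2 had 22 and 10 reads, 5.57% (3.71% to 8.29%) and 2.02% (1.10% to 3.67%) of the pair with Eif5a. Eif1b held 16.8% and 19.8% of the pair with Eif1. Eif1ax, the X-linked gene of eIF1A, held 75.3% and 68.2% of the pair with the autosomal Eif1a. Eif3j2 had 1 read in each library, against 51 and 75 reads of Eif3j1. The exception was the gamma subunit of eIF2, where the Y-linked Eif2s3y had 55 and 40 reads and the X-linked Eif2s3x had 38 and 44. Eif2s3y had more reads than Eif2s3x in replicate 1 and fewer in replicate 2. On Known models alone Eif2s3x led in both libraries, since Eif2s3y held 37.0% of the pair in replicate 1 and 23.8% in replicate 2. Of the 4 eIF2 kinases, Eif2ak1 held 75.7% and 81.7%.

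**Figure D2:**
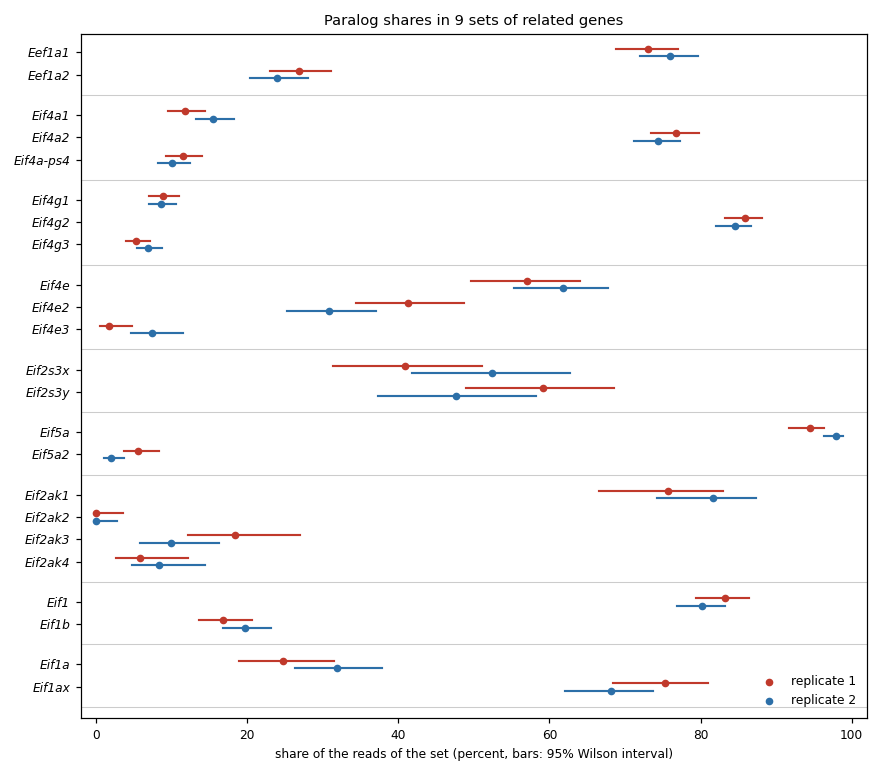
Share of each gene in the reads of its set, for 9 sets, with replicate 1 above replicate 2 and 95% Wilson intervals. Eef1a2 lies at 26.9% and 24.0% of its pair, Eif4a2 at 76.8% and 74.3% of a set with Eif4a-ps4, and the intervals of Eif2s3y and Eif2s3x overlap.

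Because a long read spans most of a transcript, it also shows which exons were joined. Isoforms were counted in genes read 50 times or more per library. To count, an isoform needed 10% or more of those reads in replicate 1 and in replicate 2. Reads of incomplete splice matches (ISM, part of an annotated chain of introns) and genomic models were set aside for this count. Of the 34 factor genes with enough such reads, 5 (14.7%) had 2 or more isoforms, against 762 of 2631 genes (29.0%) overall. The median share of the leading isoform was 93.4% in the factor genes and 88.2% in all genes. That leading isoform was an annotated transcript in 33 of the 34. The 5 genes were Eif4h, Eif4a2, Eif4e2, Eef1d and Eif3d.

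Eif4h (chr5:134619721-134639490) was split evenly. The isoform Eif4h-205 held 52.4% of its reads in replicate 1 and 47.5% in replicate 2, and Eif4h-201 held 46.9% and 49.7%. They differ by a 60-base coding exon at chr5:134624441-134624500 on the minus strand, which keeps the reading frame. This exon is shown, read in the direction of the transcript, because the choice over it divides the reads of the gene.
Eif4h exon: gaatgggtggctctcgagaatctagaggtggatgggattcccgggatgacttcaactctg
It was included in 291 of 551 informative reads in replicate 1 (52.8%, 48.6% to 56.9%) and in 322 of 656 in replicate 2 (49.1%, 45.3% to 52.9%). The intervals of the libraries overlap.

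Eif4a2 (chr16:23107444-23114136) showed a choice of only 3 bases. Its second exon begins at either of 2 acceptor sites 3 bases apart, at 23108585 or 23108588 on chromosome 16. Reads that used the upstream site keep the 3 bases in capitals below, which lie within the coding sequence.
Eif4a2-203: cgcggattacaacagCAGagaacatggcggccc
Eif4a2-201: cgcggattacaacagagaacatggcggccc
The upstream site was used in 140 of 521 reads in replicate 1 (26.9%, 23.2% to 30.8%) and in 154 of 560 in replicate 2 (27.5%, 24.0% to 31.3%). Shares in the libraries were nearly equal. The isoform Eif4a2-201 held 68.9% and 69.4% of counted reads, and Eif4a2-203 held 25.4% and 26.8%.

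Eif4g1 had a tandem acceptor of the same kind, at 20681734 or 20681737 on chromosome 16. Both sites follow the same upstream exon, and the capitals again mark the bases that the upstream site alone keeps.
Eif4g1-205: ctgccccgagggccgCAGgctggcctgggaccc
Eif4g1-201: ctgccccgagggccggctggcctgggaccc
The upstream site was used in 13 of 39 reads in replicate 1 (33.3%, 20.6% to 49.0%) and in 18 of 42 in replicate 2 (42.9%, 29.1% to 57.8%). In both genes the extra bases are the same triplet. Tandem sites at most 12 bases apart, each used by 5% to 95% of reads, were found at 4 places in the 63 genes. The others were an acceptor pair of Eif2d 10 bases apart and a donor pair of Eif2ak1 8 bases apart. The Eif2d pair had the fewest informative reads, 27 and 34, and such sites could go unseen in genes of fewer reads.

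Eef1d (the delta subunit of eEF1B) was read mostly in its long form. The long form is known from brain, where its extended N terminus gives it a role as a transcription factor of the heat shock response. That extension comes from a 1140-base exon at chr15:75902679-75903818 on the minus strand. The first 120 coding bases are shown, with the start codon in capitals, because they open the extension.
Eef1d-206: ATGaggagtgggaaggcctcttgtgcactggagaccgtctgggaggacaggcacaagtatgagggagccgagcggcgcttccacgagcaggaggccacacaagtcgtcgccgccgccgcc
The exon was included in 35 of 49 reads in replicate 1 (71.4%, 57.6% to 82.2%) and in 43 of 59 in replicate 2 (72.9%, 60.4% to 82.6%). A shorter coding exon of 57 bases at chr15:75897226-75897282 was included in 10 of 60 reads (16.7%) and in 9 of 67 (13.4%).
Eef1d exon: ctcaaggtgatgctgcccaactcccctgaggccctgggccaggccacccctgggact
The isoform Eef1d-206 held 43.5% and 50.7% of counted reads and Eef1d-218 held 17.7% and 18.8%. An unannotated chain with both exons held 12.9% and 11.6%.

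Eif4e2 was the most varied of the 34 genes at its ends. Its leading chain, a combination of known splice sites that is absent from the annotation, held 40.0% of counted reads in replicate 1 and 29.0% in replicate 2. The annotated Eif4e2-202 held 18.6% and 22.6%, and Eif4e2-204 held 12.9% and 17.7%. Each end had 2 exons that held 10% or more of counted reads in both libraries. The exon whose donor is at 87214495 on chromosome 1 was used in 70.0% and 58.1%, and the one at 87214019 in 30.0% and 41.9%. The last exon starting at 87237846 took 72.9% and 67.7%, and the one at 87227801 took 20.0% and 27.4%. Of the 34 genes, 2 used 2 or more first exons (Eif4e2 and Eif3d) and 1 used 2 last exons. In Eif3d, the annotated Eif3d-201 held 75.8% and 79.7% of counted reads, and an unannotated chain with the other first exon held 15.2% and 13.9%.

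Exon inclusion was measured at 53 internal exons of 27 factor genes with 20 or more informative reads per library. These are the exons with at least 1 skipping read, so they do not stand for all exons. Of the 53, 28 were included in more than 95% of reads in both libraries, and 6 exons of 5 genes lay between 10% and 90%. Beside those of Eif4h and Eef1d these were exons of Eif4e2, Eif2s3y and Eif4enif1. The 95-base exon of Eif2s3y at chrY:1013379-1013473, whose length shifts the reading frame, was included in 29 of 49 reads (59.2%) and in 20 of 36 (55.6%). The 72-base exon of Eif4enif1 at chr11:3233988-3234059 was included in 14 of 20 (70.0%) and in 26 of 33 (78.8%).
Eif2s3y exon: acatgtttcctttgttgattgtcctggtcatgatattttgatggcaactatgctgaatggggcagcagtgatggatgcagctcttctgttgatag
Eif4enif1 exon: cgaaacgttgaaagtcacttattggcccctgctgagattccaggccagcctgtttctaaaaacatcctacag
Both lie within coding sequence and are shown as the choice that divides the reads of each gene. A 79-base exon of Eif4e2 was included in 19.2% and 22.7% of reads. Just outside the upper limit lay a 114-base exon of Eif4g2, at 89.3% and 92.4%.

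**Figure D3:**
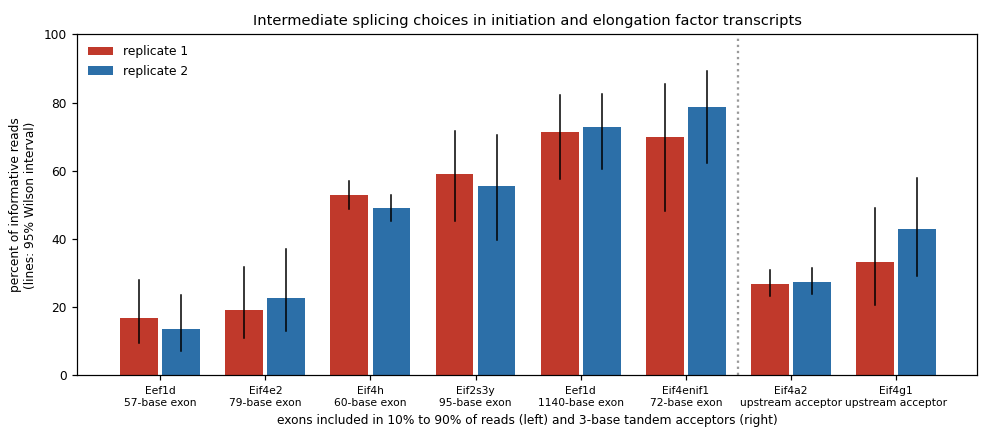
Percent of informative reads that include each of 6 exons, or that use the upstream of 2 acceptors 3 bases apart, with replicate 1 left of replicate 2 and 95% Wilson intervals. The intervals of the libraries overlap for each of the 8 choices, from the 57-base exon of Eef1d (16.7% and 13.4%) to the 72-base exon of Eif4enif1 (70.0% and 78.8%).

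Reads of the factor genes matched complete annotated transcripts more often than those of other protein-coding genes did. Known models held 81.6% of their reads in replicate 1 and 80.1% in replicate 2, against 72.7% and 71.6% in other protein-coding genes. Chains with unannotated combinations of known splice sites (NIC) held 4.03% and 3.56%, against 7.10% and 6.90%. Chains with an unannotated splice site (NNC) held 2.59% and 2.54%, against 4.45% and 4.52%. Genomic models, which overlap a gene without its splicing, held 0.965% and 1.39%, against 5.15% and 5.97%. ISM suffix reads, which carry only the downstream part of a chain, went the other way, at 9.72% and 10.5% against 7.65% and 7.83%. This pooled share rested in large part on few genes. Eif4g2, Eef2, Eef1a1 and Eif4g1 held 111, 104, 77 and 55 of the 665 suffix reads in replicate 1. In replicate 2 they held 123, 123, 80 and 59 of 845. Over the 38 genes read 50 times or more per library, the median suffix share was 4.24%. No test was made of these shares, since reads are not replicates.

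Among Known reads, 99.7% in replicate 1 and 99.5% in replicate 2 lay on transcripts annotated as protein-coding, against 97.7% and 97.5% in other genes. Retained-intron transcripts held 10 of 5582 and 16 of 6435 of these reads, and nonsense-mediated decay transcripts held 4 and 1. The noncoding transcript with most reads was Eif1-203, a processed transcript, with 4 and 7.

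A few genes departed far from that picture. Over the 38 genes read 50 times or more per library, the mean Known share ran from 1.27% to 98.8%, with a median of 88.1%. Eif4g1 was lowest, with 0 Known reads of 71 in replicate 1 and 2 of 79 in replicate 2, and both of those lay on the retained-intron transcript Eif4g1-210. Suffix models held 55 and 59 of its reads. Its relative Eif4g3 had the same pattern, with 31 of 43 and 50 of 63 reads on suffix models. Known transcripts held 2 and 7 reads of Eif4g3. Across the 38 genes the suffix share had a Spearman rho of 0.32 with the length of the leading annotated transcript, given as a description. For Eif4g1 that length is the 5004 bases of Eif4g1-210, which need not be the transcript its suffix reads come from.

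Suffix models also held 39.8% and 39.0% of the reads of Eef2, and 36.8% and 46.2% of those of Eif3i. In Eif3i, 19 and 34 reads lay on 1 suffix chain of 10 exons, where the annotated Eif3i-201 has 11. Eif3c, with 45 and 42 reads, had suffix models at 42.2% and 61.9%. Other genes fell short in other ways. Eif5b, the GTPase that joins the ribosomal subunits, had 11 of 28 and 12 of 23 reads on a 5-exon chain that stops early, beside 10 and 8 on the annotated Eif5b-201. Eif4ebp2 had 9 of 10 and 19 of 20 reads on single-exon genomic models. In Eif4enif1 and Eif2s3y the NIC chains held more reads than Known transcripts. They held 14 of 28 and 23 of 40 reads in Eif4enif1, and 30 of 55 and 21 of 40 in Eif2s3y.

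**Figure D4:**
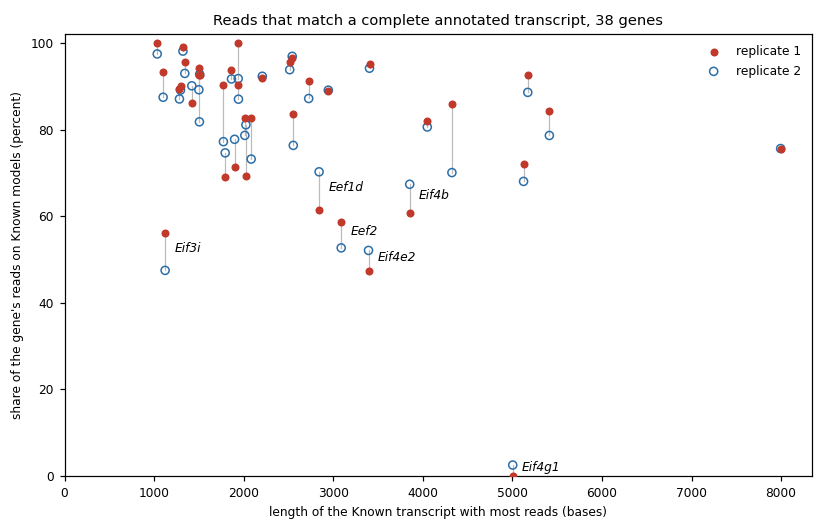
Share of reads on Known models against the length in bases of the leading Known transcript, for 38 genes read 50 times or more per library (replicate 1 filled, replicate 2 open). Means of the genes run from 1.27% to 98.8%, with a median of 88.1%. Eif4g1 lies at 0% and 2.53%, at the length of its retained-intron transcript Eif4g1-210.

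The libraries were compared gene by gene with a two-sided Fisher's exact test of reads against all other mouse reads, in genes with at least 10 reads over both. Of 11203 genes tested, 236 (2.11%) passed an adjusted p of 0.05, of which 113 (1.01% of those tested) were higher in replicate 1 and 123 (1.1%) in replicate 2. None of the 61 factor genes tested did (0 called). Of these, 9 had an unadjusted p under 0.05 (14.8%, against 11.2% of all genes). The exact test of edgeR called 0, against 18 of 11203 genes (0.161%). Its dispersion was estimated from the same 2 libraries taken as 1 group. Differences between them raise that dispersion, so few calls were built in and its 0 adds little. The median log2 ratio of replicate 1 over replicate 2 was 0.05 in the factor genes and 0.01 in all genes. The lowest adjusted p of Fisher's exact test, 0.0883, belonged to Eif3a, the largest eIF3 subunit. Eif3a had 97 reads in replicate 1 and 72 in replicate 2, a log2 ratio of 0.68 (95% interval 0.24 to 1.12). Among the other 8 genes, Eif5, Eif5a2 and Eif2s3y were read relatively more in replicate 1, with log2 ratios of 0.30, 1.35 and 0.71. Eif1, Eif1b, Eif1a, Eif3b and Eif4e3 were read relatively more in replicate 2, at -0.20, -0.48, -0.56, -0.31 and -2.07.

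Summed levels of marker genes differed between the libraries for some cell types and not detectably for others. A sum can rest on few abundant genes, and its interval covers counting error only. Fisher's exact test called 5 striatal, 3 oligodendrocyte and 3 red blood cell markers. It called 1 marker in each of the excitatory neuron, astrocyte, meningeal and choroid plexus lists, and 0 in the rest, against 2.11% of all genes. Of 7 striatal markers 5 had reads in both libraries, and the sum stood at 928 CPM in replicate 1 and 223 CPM in replicate 2, and the 5 oligodendrocyte markers at 3120 and 2043 CPM. The 5 excitatory neuron markers stood at 4740 and 6261 CPM, and the 3 choroid plexus markers, 2 of them read in both libraries, at 38.7 and 256 CPM. Red blood cell markers summed to 293 and 545 CPM, meningeal ones to 141 and 233 CPM, astrocyte ones to 2499 and 2906 CPM, and inhibitory neuron ones to 440 and 368 CPM. The log2 ratio of the summed reads had an interval that included 0 for precursors (0.21), microglia (0.09), and endothelial and mural cells (-0.09). The part of these lists in the ratios of the factor genes was not tested. The summed level of the 63 genes was 8828 CPM in replicate 1 and 8691 CPM in replicate 2.

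Isoform usage was compared by a chi-square test in 38 factor genes. Unlike the count of isoforms above, it took all model classes, with incomplete splice matches and single-exon genomic models included. A difference in usage can therefore lie in truncated or unspliced reads. The test called 0 of them after adjustment, against 25 of 3141 genes (0.796%). An unadjusted p under 0.05 was found in 7 of the 38 (18.4%), against 266 of the 3141 (8.47%). No other tool was run on isoform usage. Eif1ax had the lowest adjusted p of the chi-square test, 0.190. Its single-exon genomic models held 5 of 134 reads in replicate 1 and 19 of 167 in replicate 2.

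**Figure D5:**
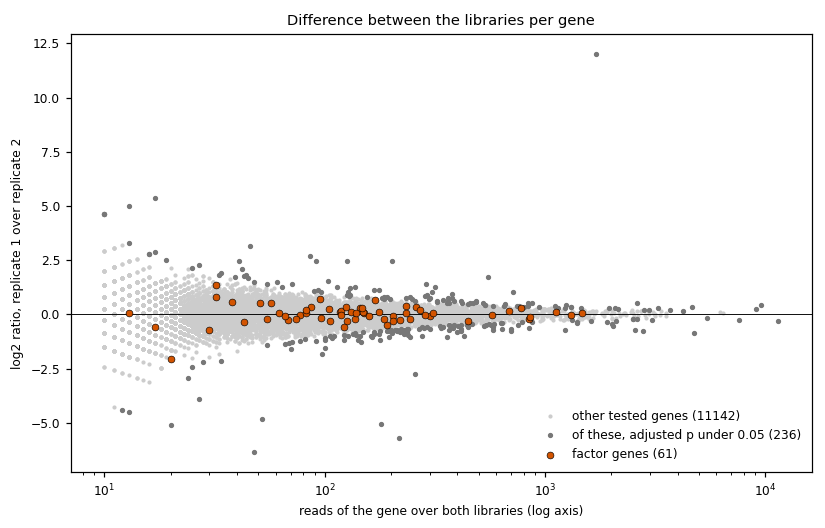
Log2 ratio of replicate 1 over replicate 2 against the reads of a gene over both libraries (log axis), for the 61 factor genes and all other tested genes. Factor genes lie within the cloud of other genes, from -2.07 (Eif4e3) to 1.35 (Eif5a2), and none is among the 236 genes called.

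Other genes of translation and its control were looked at as a list of 48, of which 47 had reads and were tested. Fisher's exact test called 0 of them, against 2.11% of all genes, and 3 (6.38%) had an unadjusted p under 0.05, against 11.2%. Their median log2 ratio was 0.04, against 0.01 in all genes. Paip2, which holds back the poly(A)-binding protein, was highest with 257 reads in replicate 1 and 293 in replicate 2. Rheb, the GTPase that activates mTOR, had 192 and 255 reads. Dohh, the enzyme that completes the hypusine of eIF5A, had 100 and 119 reads, and Impact, an inhibitor of the kinase GCN2, had 123 and 98.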

How the data were processed

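Per the labels and the deposited text, the authors deposited for each library a table of whole-number read counts per transcript model and the models' exons. The models were made per library, on mm10 and the GENCODE M21 annotation. TALON is named in the deposited models. The aligner is not given in the sources used here. The counts carry no normalization. Unannotated models were matched between libraries by chain of introns. Reads were summed per gene and scaled to mouse reads, spike-ins left out. Python 3.11.15 and scipy 1.17.1 gave Fisher's exact, chi-square and Wilson results, with Benjamini-Hochberg adjustment over all genes tested and 0.5 reads added before log2 ratios. edgeR 4.0.16 and DESeq2 1.42.0 served as alternatives, and minimap2 2.31-r1302 compared annotated transcripts. The scripts were tested on simulated data. Exon sequences come from the GENCODE M21 transcripts. The text names the 3 highest genes of each of 11 roles, all paralogs and all genes with several isoforms. Further genes were named after their values were seen. The members and lists were chosen with earlier results of these data known.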

Additional observations from a re-analysis of the deposited data

Results flagged for a closer look

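Reads of the processed pseudogene Eif4a-ps4 lie outside the protein-coding genes described above, and numbered 80 in replicate 1 and 80 in replicate 2, above the limit of 3 reads. Of these, annotated models held 79 in replicate 1 and 80 in replicate 2.

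Antisense reads opposite the 63 genes lie outside the gene counts, and numbered 149 in replicate 1 and 197 in replicate 2. They were seen in both libraries opposite 26 genes, and opposite 24 genes in neither. Eif4g3 had the highest count in each library (25 in replicate 1 and 30 in replicate 2), and Eif4e had 16 and 19 and Eif3h 14 and 20. Eif2ak4 had 9 and 21 antisense reads beside 6 and 11 sense reads, so the antisense strand held more.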

How the results depend on the processing

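The count of 0 factor genes called between the libraries was the same under every alternative run, as was the count of 0 for isoform usage. The usage test took 53 factor genes at 20 reads per library, 17 at 100 reads and 12 with Known transcripts alone. It took 38 with isoforms under 5 reads merged. Its calls over all genes in these settings are not given here. With 0.796% of all genes called in the main setting, 0 among so few genes says little. Eif3a came near the threshold, with an adjusted p of Fisher's exact test of 0.0543 at a minimum of 50 reads over both libraries. All genes called were 256 of 5915 in that setting, 166 of 8526 with Known reads alone and 189 of 18366 with no minimum of reads. They were 242 of 11203 with library totals scaled by edgeR (TMM) and 253 of 11203 with size factors of DESeq2. The count of 5 of 34 genes with several isoforms was 8 of 34 with a minor share of 5% and 2 of 34 with 20%. It was 9 of 37 with incomplete splice matches kept and 2 of 30 with Known transcripts alone. With 20 or more reads per library it was 8 of 49. Shares over all genes under these settings are not given here. The count of 6 intermediate exons of 53 was 2 of 35 with at least 50 informative reads and 2 of 9 with Known transcripts alone. With Known reads alone, the mean share of Eif4g2 moved to 99.1%, of Eif4e to 72.6%, of Eif4ebp2 to 26.7%, of Eif2s3y to 30.4% and of Eif2ak1 to 87.1%. The share of Eif4a2 was 75.5% with Eif4a-ps4 counted beside Eif4a1, an alternative chosen after seeing the data. The summed level of the 63 genes was 9883 CPM over protein-coding reads and 10852 CPM over Known reads. The Known share was 85.2% among models with at least 2 reads. Why these values moved was not tested beyond what each setting leaves out. No paired analysis was possible because the series has 1 group.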
